A study of Mus musculus with 10 samples.

Results

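The genes described here are those of megalin and cubilin protein uptake, the route by which the proximal tubule takes filtered protein back from the urine. They were taken by gene symbol as 8 genes (Lrp2, Cubn, Amn, Dab2, Fcgrt, Clcn5, Ocrl and Lrpap1), and all 8 were among the 13299 genes of the table. Each gene was compared between 5 Rragc S74N/+ kidneys and 5 Rragc +/+ kidneys. All 10 kidneys came from old mice (1.5 years). The S74N/+ mice carry 1 copy of a knock-in allele of Rragc that changes a serine of the protein to asparagine and also holds silent base changes. Rragc encodes RagC, a GTPase that signals nutrient sufficiency to mTORC1 at the lysosome. The S74N allele was made by Cas9 editing of embryos, so it is a germline change present in every cell type of the kidney and of the rest of the body, and the +/+ controls carry only the wild-type allele. Whole kidney was lysed, so each value is a sum over all segments and cell types. The labels give neither sex, litter nor date. Xist is not in the table and 4 Y-linked genes had counts in all 10 kidneys.

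Megalin, encoded by Lrp2, is a very large receptor of the low-density lipoprotein (LDL) receptor family that sits in the brush border of the proximal tubule. Cubilin, encoded by Cubn, has no membrane-spanning segment and reaches the surface only together with amnionless, encoded by Amn. Both receptors bind albumin, vitamin carrier proteins, hormones and enzymes that pass the glomerular filter, and clathrin-coated pits carry them inward through the adaptor protein Dab2. In the endosome the ligands leave the receptors as the lumen acidifies, and the receptors return to the surface. Loss of megalin, of cubilin with amnionless, of the endosomal exchanger Clcn5 or of the phosphatase Ocrl is known to give low-molecular-weight or albumin-containing proteinuria.

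Transcripts were counted from their 3′ ends, and the values are normalized counts, that is, reads per gene divided by a size factor of the library. The 8 libraries whose whole reads could be recovered held 4488493 to 5797251 reads, of which 33.8% to 38.0% came from mitochondrially encoded genes. Rragc itself had 146 ± 42.7 normalized counts (SD, n = 5) in +/+ and 124 ± 26.4 (SD, n = 5) in S74N/+ kidneys (exact permutation test, two-sided, p = 0.33), and 3′ counts do not show which allele was read. Kidneys are numbered here in the order of deposit, and nothing links a number in one genotype with the same number in the other. One kidney stood apart for these genes. S74N/+ replicate 1 was the lowest of the 10 kidneys for 6 of the 8 genes and for 15 of 30 markers of the proximal tubule. The fold changes of those 6 genes are therefore also given without it below. Its depth, at 4930328 reads, and its mitochondrial share, at 34.6%, were within the range of the other libraries.

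Of the 8 genes, 1 passed the threshold of an adjusted p of 0.05, Dab2, which fell, and 0 rose. The test was limma with Benjamini-Hochberg adjustment over all 13236 genes tested, of which 6.03% passed, 3.45% as higher and 2.58% as lower in S74N/+. With the count models on the reads of 8 kidneys, 0 of the 8 genes passed in edgeR, where 6.43% of all genes passed, and 1 passed in DESeq2, where 10.6% passed, while limma on the same 8 kidneys called 0, beside 6.3% of all genes. At an unadjusted p under 0.05, 2 of the 8 genes passed, against 25.4% of all genes. By value, 6 of the 8 genes had a lower fitted mean in S74N/+ and 2 a higher one (Lrp2 and Clcn5). The median log2 fold change of the 8 was -0.20, beside -0.01 over all genes tested. All 8 passed the filter on low values, which asked for at least 5 normalized counts in at least 5 kidneys.

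**Figure D1:**
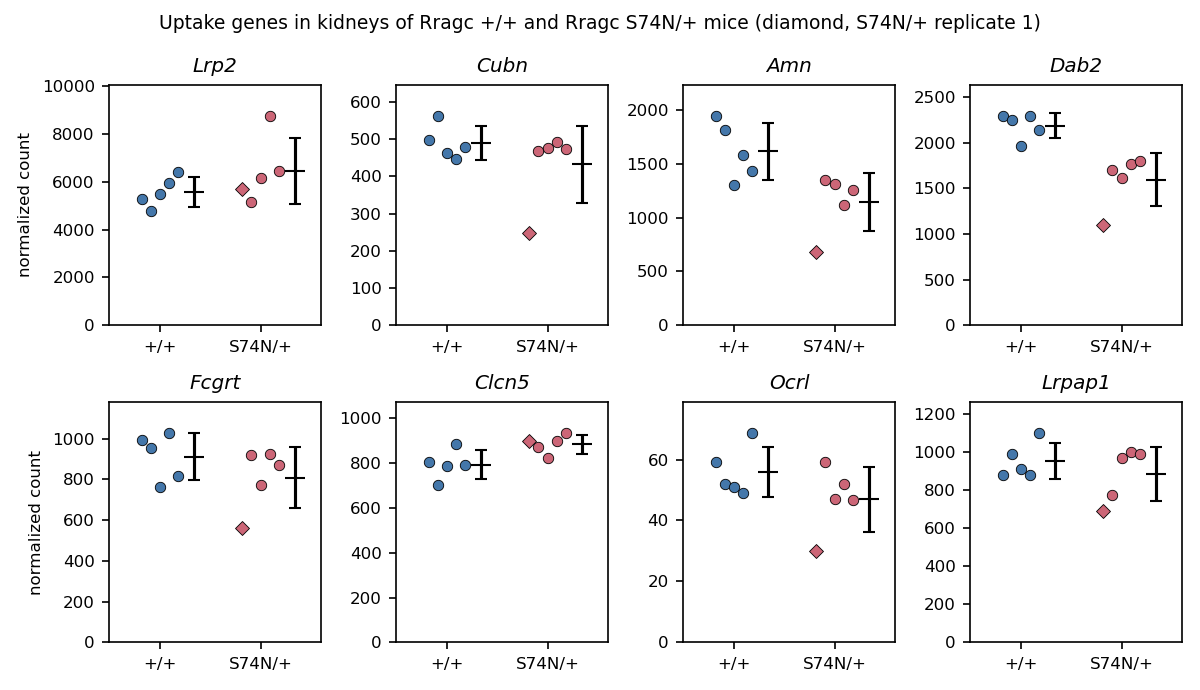
Normalized count of each of the 8 genes in every kidney (vertical axes, 1 panel per gene, each starting at 0), with Rragc +/+ and Rragc S74N/+ kidneys side by side, points as single kidneys (the diamond is S74N/+ replicate 1) and bars as the mean with the SD (n = 5 each). For Dab2 the highest S74N/+ kidney, at 1799, lay under the lowest +/+ kidney, at 1963, and in the other 7 panels the genotypes overlapped.

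In +/+ kidneys Lrp2 had the highest counts of the 8, at 5579 ± 632 (SD, n = 5), and ranked 38th of all genes by mean over the 10 kidneys. It was followed by Dab2 at 2185 ± 140, Amn at 1620 ± 263, Lrpap1 at 952 ± 94.8, Fcgrt at 912 ± 115, Clcn5 at 792 ± 64.6, Cubn at 489.8 ± 44.7 and Ocrl at 55.9 ± 8.11. A 3′ tag is counted once per transcript end and not per length, but how well each end is captured differs between genes, so this order is one of tags and not of protein. Lrpap1 overlapped Fcgrt and Fcgrt overlapped Clcn5 among the +/+ kidneys, while the other neighbours in the order did not overlap.

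The megalin receptor, Lrp2, did not pass the test. The +/+ kidneys held 5279, 4756, 5505, 5944 and 6410.2 normalized counts. The S74N/+ kidneys held 5708, 5141, 6176, 8754 and 6453. The ranges overlapped, and S74N/+ replicate 4 was the highest kidney by a wide margin. The S74N/+ mean was 6446 ± 1383 (SD, n = 5), and the log2 fold change was 0.19 ± 0.14 (standard error) with a 95% interval of -0.11 to 0.49 (limma, adjusted p = 0.42). Without S74N/+ replicate 4 the log2 fold change was 0.08, and without S74N/+ replicate 1 it was 0.23. S74N/+ replicate 1, the lowest kidney for most of the 8 genes, was not low for Lrp2, where its log2 level was 0.04 above the +/+ mean.

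The second receptor, Cubn, did not pass the test either. Its +/+ kidneys held 497, 563, 464, 447 and 479 normalized counts. Its S74N/+ kidneys held 248, 469, 477, 493 and 475. Outside S74N/+ replicate 1, every S74N/+ value lay within the +/+ range. The S74N/+ mean was 432 ± 103 (SD, n = 5) with a log2 fold change of -0.22 ± 0.17 and a 95% interval of -0.57 to 0.14 (limma, adjusted p = 0.44). Without S74N/+ replicate 1 the log2 fold change was -0.03.

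Amn, the membrane-spanning partner that brings cubilin to the surface, was lower by value and narrowly missed the threshold. In the +/+ kidneys Amn was at 1949, 1814, 1307, 1588 and 1439.6 normalized counts. In the S74N/+ kidneys it was at 684, 1351, 1313, 1117 and 1262. Of the S74N/+ kidneys, 3 lay under the lowest +/+ value and the 2 others (replicates 2 and 3) lay just above it. The means were 1620 ± 263 and 1146 ± 273 (SD, n = 5 each), a log2 fold change of -0.52 ± 0.17 with a 95% interval of -0.89 to -0.16 (limma, unadjusted p = 0.00758, adjusted p = 0.078). DESeq2 on the reads of 8 kidneys put it past the threshold, with a log2 fold change of -0.59 and an adjusted p of 0.046. Without S74N/+ replicate 1 the limma value was -0.35, and the lowest adjusted p in any fit without 1 kidney was 0.065.

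Dab2, the adaptor that couples megalin to the clathrin coat, fell. Its +/+ kidneys held 2290.04, 2248, 1963, 2292 and 2132 normalized counts. Its S74N/+ kidneys held 1101, 1697, 1612, 1765 and 1799. The genotypes did not overlap, as was the case for 8.16% of all genes tested (4.01% with S74N/+ lower and 4.15% with S74N/+ higher). The mean fell from 2185 ± 140 to 1595 ± 285 (SD, n = 5 each), a log2 fold change of -0.47 ± 0.13 with a 95% interval of -0.75 to -0.20 (limma, adjusted p = 0.042). The exact permutation test of the means gave p = 0.00794 (two-sided), the smallest that 5 against 5 allows. Any gene without overlap gets this p, so it adds nothing to the lack of overlap. Without S74N/+ replicate 1, the kidney farthest from the rest, the call was kept with a log2 fold change of -0.35 and an adjusted p of 0.029. The call was close to the threshold: it was also kept without +/+ replicate 3 (log2 fold change -0.51, adjusted p = 0.049), and it was lost without any one of the other 8 kidneys, with log2 fold changes of -0.52 to -0.46 and adjusted p of 0.0538 to 0.106. With limma scaled on proximal tubule markers, edgeR and DESeq2, it did not pass (log2 fold changes -0.21, -0.46 and -0.47, adjusted p = 0.27, 0.091 and 0.052).

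**Figure D2:**
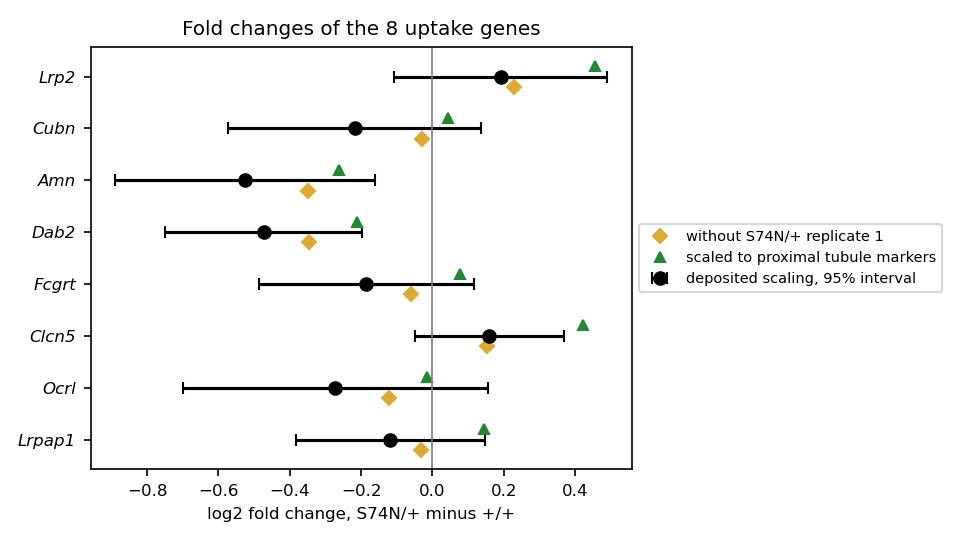
Log2 fold change of each of the 8 genes, S74N/+ against +/+ (horizontal axis, log2 of normalized count + 1, limma), with black points and bars as the value and its 95% interval (n = 5 kidneys per genotype), diamonds as the value without S74N/+ replicate 1 and triangles as the value after scaling to proximal tubule markers. The intervals of Dab2 and Amn lie under 0 and those of the other 6 genes include 0, while the triangles of Cubn, Fcgrt and Lrpap1 lie on the other side of 0 from their black points.

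Lrpap1, the receptor-associated protein, is a chaperone of the endoplasmic reticulum that keeps megalin from binding ligands before it reaches the surface. Its values were 880.4, 992, 911, 878 and 1100.4 normalized counts in +/+ and 691, 772, 968, 1000.1 and 988 in S74N/+ kidneys. S74N/+ replicates 1 and 2 lay under the +/+ range and the 3 others lay inside it. The log2 fold change was -0.12 ± 0.12 with a 95% interval of -0.38 to 0.15 (limma, adjusted p = 0.59). Without S74N/+ replicate 1 it was -0.03.

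Fcgrt encodes the heavy chain of the neonatal Fc receptor, which binds albumin and IgG at acid pH and returns them from the endosome. It had 996, 954, 763, 1027 and 819 normalized counts in +/+ and 561, 918, 771, 926 and 869.5 in S74N/+ kidneys. All S74N/+ values but that of replicate 1 lay within the +/+ range. The log2 fold change was -0.19 ± 0.14 with a 95% interval of -0.49 to 0.12 (limma, adjusted p = 0.44), and it was -0.06 without S74N/+ replicate 1. B2m, the light chain of the same receptor and itself a filtered protein, had a log2 fold change of 0.05 ± 0.12 (limma, adjusted p = 0.82).

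Clcn5 encodes the chloride and proton exchanger of the proximal tubule endosome, mutated in Dent disease. It had 803, 701, 786, 883 and 789 normalized counts in +/+ and 899, 869, 819.8, 896 and 933 in S74N/+ kidneys. All 5 S74N/+ kidneys lay above the +/+ mean of 792 ± 64.6 (SD, n = 5), but the ranges overlapped through +/+ replicate 4. The S74N/+ mean was 883 ± 42.1 (SD, n = 5), with a log2 fold change of 0.16 ± 0.098 and a 95% interval of -0.05 to 0.37. Taken singly, the difference of means gave p = 0.024 in the exact permutation test (two-sided, unadjusted), while limma over all genes gave an adjusted p of 0.33. Clcn5 was the only one of the 8 whose 5 S74N/+ values were all above the +/+ mean, and S74N/+ replicate 1 lay 0.19 above that mean on the log2 scale.

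Ocrl encodes the inositol polyphosphate phosphatase of clathrin-coated vesicles and early endosomes that is mutated in Lowe syndrome. It was the least counted of the 8, at 59.3, 52.02, 50.9, 48.9 and 68.6 normalized counts in +/+ and 29.8, 59.1, 47.0, 51.9 and 46.6 in S74N/+ kidneys. The libraries with recovered reads held 32 to 61 Ocrl reads each, so counting error alone gives a coefficient of variation of 13.7% in +/+ and 14.4% in S74N/+, beside 14.5% and 23.0% observed. The log2 fold change was -0.27 ± 0.20 with a 95% interval of -0.70 to 0.16 (limma, adjusted p = 0.42), and -0.12 without S74N/+ replicate 1. The log2 fold change of Dab2 lies inside the interval of Ocrl.

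The kidney that stood apart was not low for all the genes of the route. On the log2 scale S74N/+ replicate 1 lay at -1.23 from the +/+ mean for Amn, -0.99 for Dab2, -0.97 for Cubn, -0.87 for Ocrl, -0.69 for Fcgrt and -0.46 for Lrpap1. The receptor Lrp2 and the exchanger Clcn5 lay at 0.04 and 0.19 in the same library. The same kidney had the lowest mean log2 level over the 30 proximal tubule markers, 9.48, while the other S74N/+ kidneys lay at 9.97 to 10.25 and the +/+ kidneys at 10.12 to 10.31.

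**Figure D3:**
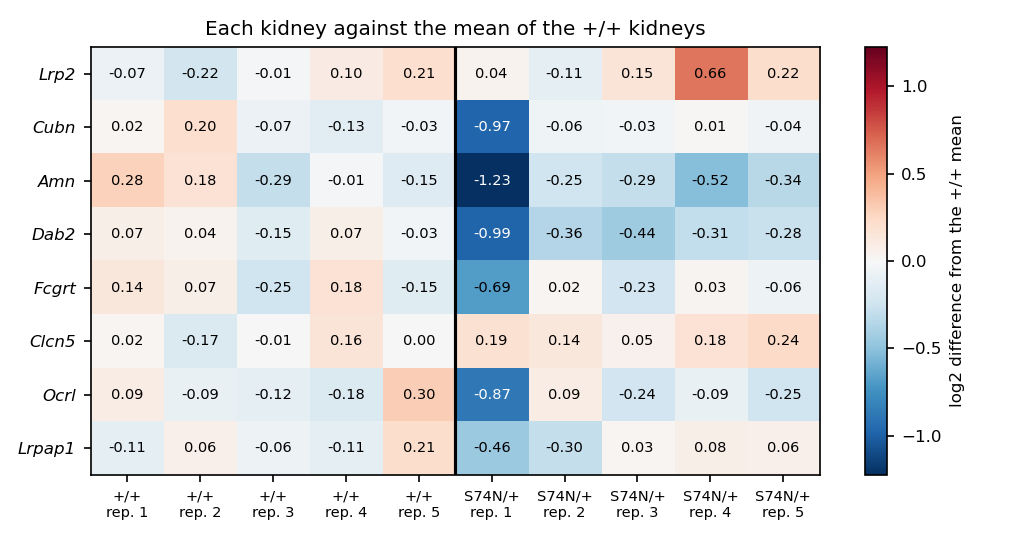
Deviation of each of the 8 genes (rows) in each of the 10 kidneys (columns) from the +/+ mean, as a difference of log2(normalized count + 1), with red above and blue below that mean. The column of S74N/+ replicate 1 runs from -1.23 for Amn to 0.19 for Clcn5, the Clcn5 row is above 0 in all 5 S74N/+ kidneys and the Dab2 row is below 0 in all 5.

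The 4 promoters shown are those of the receptor genes and of the adaptor, so that genes whose values parted in S74N/+ replicate 1 (Lrp2 from Dab2, Amn and Cubn) can be read side by side. They are RefSeq windows of GRCm38.p6 from 250 bases before to 50 bases after a transcript start, read 5′ to 3′ on the gene's strand, and the files themselves were made on another build. Lrp2 starts at chr2:69585980-69586279 (minus strand), Cubn at chr2:13491827-13492126 (minus strand), Amn at chr12:111270846-111271145 (plus strand) and the second start window of Dab2 at chr15:6386498-6386797 (plus strand). Capitals mark a match to CACGTG, the core of the element bound by TFEB, or to GTTAAT, a part of the HNF1 site.
Lrp2: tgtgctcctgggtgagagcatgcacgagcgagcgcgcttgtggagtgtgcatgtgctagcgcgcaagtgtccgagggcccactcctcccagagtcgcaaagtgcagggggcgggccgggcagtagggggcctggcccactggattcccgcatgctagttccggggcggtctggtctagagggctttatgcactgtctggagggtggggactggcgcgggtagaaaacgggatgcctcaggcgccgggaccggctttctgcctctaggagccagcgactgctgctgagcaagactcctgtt
Cubn: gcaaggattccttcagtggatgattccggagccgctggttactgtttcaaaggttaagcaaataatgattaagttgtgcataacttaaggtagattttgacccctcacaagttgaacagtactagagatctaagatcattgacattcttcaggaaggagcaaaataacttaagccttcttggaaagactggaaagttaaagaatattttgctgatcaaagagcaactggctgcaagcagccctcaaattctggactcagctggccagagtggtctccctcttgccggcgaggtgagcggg
Amn: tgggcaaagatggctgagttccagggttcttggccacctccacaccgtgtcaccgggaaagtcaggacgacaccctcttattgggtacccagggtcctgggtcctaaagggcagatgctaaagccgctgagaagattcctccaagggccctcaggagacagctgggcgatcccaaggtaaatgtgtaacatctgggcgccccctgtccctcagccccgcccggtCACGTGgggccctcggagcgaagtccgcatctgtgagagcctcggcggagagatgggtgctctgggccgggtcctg
Dab2: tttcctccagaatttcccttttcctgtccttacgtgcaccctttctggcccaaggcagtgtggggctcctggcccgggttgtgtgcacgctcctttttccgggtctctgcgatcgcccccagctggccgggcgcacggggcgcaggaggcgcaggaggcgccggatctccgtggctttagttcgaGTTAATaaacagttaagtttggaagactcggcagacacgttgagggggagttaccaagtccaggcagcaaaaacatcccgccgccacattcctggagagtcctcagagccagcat
All 8 genes had a window, 10 windows in all. The letters CACGTG, which read the same on both strands, stood in the Amn window, from -26 to -21 relative to the start base, and in 7.15% of all 32851 windows. GTTAAT, searched on both strands, stood in the second Dab2 window, from -65 to -60, and in 7.10% of all windows. TATAAA, also on both strands, stood in the second Clcn5 window, from -172 to -167, and in 13.6% of all windows. No overlap between matches occurred. A match of letters is not a binding site, and a window without one says only that these letters are not in it.

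Within single kidneys, the counts of the other genes were also set against Lrp2, a comparison chosen after the values were seen and given without a test. Dab2 was at 39.6% ± 5.70 of Lrp2 (SD, n = 5, range 33.3% to 47.3%) in +/+ and at 25.3% ± 5.68 (range 19.3% to 33.0%) in S74N/+ kidneys. These ranges did not overlap. Amn was at 29.6% of Lrp2 in +/+ and 18.4% in S74N/+, Cubn at 8.93% and 6.84%, and Clcn5 at 14.3% and 14.1%. Fcgrt was at 16.6% and 12.8%, Lrpap1 at 17.2% and 13.9%, and Ocrl at 1.01% and 0.75%. Each of these genes overlapped between the genotypes. Lrp2 was itself higher by value in S74N/+, which lowers all of these percentages. The percentages are of tags of genes with different 3′ ends, so only their difference between kidneys can be read.

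How the genes varied together was examined for 6 pairs whose proteins are known to act together, as Pearson's r of the deviations from the genotype means over the 10 kidneys. Cubn and Amn, which form one receptor, had r = 0.87 (exact permutation within genotype, p = 0.040, adjusted over the 6 pairs 0.24) and Spearman's rho = 0.55 (exact permutation, p = 0.092, adjusted 0.28). Without the 2 kidneys farthest from the median of Cubn, r was 0.26, and without S74N/+ replicate 1 it was 0.46, so the relation rests on those kidneys. Lrp2 and its chaperone Lrpap1 had r = 0.60 (exact permutation, p = 0.13, adjusted 0.38) and rho = 0.67 (exact permutation, p = 0.063), and r was 0.75 without the 2 farthest kidneys. The receptors Lrp2 and Cubn had r = 0.18, and r was -0.22 without S74N/+ replicate 1. Lrp2 with Clcn5, Lrp2 with Dab2 and Clcn5 with Ocrl had r of 0.39, 0.28 and -0.14. None of the 6 passed adjustment. Over all 28 pairs of the 8 genes, 23 had a positive r with a median of 0.49, and without S74N/+ replicate 1 the count was 16 with a median of 0.03.

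Among 7743 genes with a mean of at least 50 normalized counts, those whose deviations were most like those of Lrp2 over the 10 kidneys were Flywch1, Glg1 and Ncald, each at r = 0.93. Without S74N/+ replicate 1 these were 0.93, 0.95 and 0.95. For Cubn they were Ifi30, Guca2b and Psmd3 at 0.996, 0.99 and 0.99, and 0.95, 0.89 and 0.85 without that kidney. None of the other 7 genes of the route was among either set of 3. Each set was picked as the highest r among the 7743 genes searched, where some high values can arise by chance, and no test was made. The values without S74N/+ replicate 1 reuse the other kidneys of that search and are no separate check.

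The wider machinery of the route was read from 36 tested genes of clathrin coats, adaptors, early endosomes and receptor recycling. Of these, 0 rose and 2 fell, with a median log2 fold change of -0.09. Over all genes tested 6.03% passed, 3.45% as higher and 2.58% as lower, so 2 of 36 is near the share of all genes. Cltb, a clathrin light chain, fell from 518 ± 44.3 to 399 ± 12.9 normalized counts (SD, n = 5 each), a log2 fold change of -0.37 ± 0.10 (limma, adjusted p = 0.042), and the genotypes did not overlap. Vps26a, a subunit of the retromer that returns receptors from endosomes, fell from 105 ± 9.16 to 62.9 ± 15.2 (SD, n = 5 each), a log2 fold change of -0.75 ± 0.17 (limma, adjusted p = 0.020), again without overlap. Neither passed edgeR (log2 fold changes -0.37 and -0.58, adjusted p = 0.084 for Cltb and 0.073 for Vps26a), and Vps26a did not pass DESeq2 (-0.59, adjusted p = 0.054). Neither passed limma with kidneys scaled to proximal tubule markers, where the log2 fold change was -0.11 for Cltb (adjusted p = 0.67) and -0.49 for Vps26a (adjusted p = 0.12). The Vps26a call was also lost without +/+ replicate 4 (log2 fold change -0.75, adjusted p = 0.051). When single kidneys were left out, the Cltb call was kept only without +/+ replicate 3 or S74N/+ replicate 1, and where it was lost the log2 fold change was -0.39 to -0.35. The other clathrin and retromer subunits tested did not pass. The clathrin heavy chain Cltc had a log2 fold change of -0.06 ± 0.12 and the light chain Clta -0.25 ± 0.11 (limma, adjusted p = 0.80 and 0.18). The retromer subunits Vps29 and Vps35 had -0.63 ± 0.21 and 0.12 ± 0.12 (limma, adjusted p = 0.078 and 0.54). For Vps29 the genotypes did not overlap, as for 8.16% of all genes tested. Myo6, a motor of the apical endocytic zone, had 0.30 ± 0.11 (limma, adjusted p = 0.10).

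Of 11 tested relatives of megalin in the LDL receptor family, 0 passed in limma and edgeR and 2 in DESeq2, where 10.6% of all genes passed. In limma, 3 of the 11 had an unadjusted p under 0.05, against 25.4% of all genes tested. The median log2 fold change of the 11 was -0.23. Sorl1 had a log2 fold change of -0.30 ± 0.12 (limma, adjusted p = 0.13). Lrp4, a low-count gene, had 1.22 ± 0.36 (limma, adjusted p = 0.059). Both were named because their unadjusted p was under 0.05.

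Of 10 tested genes for proteins that megalin and cubilin take up or bind, 1 rose and 0 fell, with a median log2 fold change of 0.05. By value 6 were higher and 4 lower. In limma 5 of the 10 had an unadjusted p under 0.05, in both directions, against 25.4% of all genes tested. Over all genes tested 3.45% rose and 2.58% fell. Lcn2, the secreted iron carrier lipocalin, held 7.83, 9.36, 23.0, 6.11 and 9.95 normalized counts in +/+ and 307, 72.7, 27.0, 18.3 and 23.3 in S74N/+ kidneys. S74N/+ replicate 1 was far above the others, and the ranges overlapped through +/+ replicate 3. The log2 fold change was 2.15 ± 0.60 (limma, adjusted p = 0.045), and the call was lost without any one of 6 kidneys (+/+ replicates 1, 2, 4 and 5, S74N/+ replicates 2 and 5), with log2 fold changes of 1.99 to 2.41. Without S74N/+ replicate 1 the call was kept with a smaller log2 fold change, 1.49 (limma, adjusted p = 0.033), and in edgeR and DESeq2 it was 3.19 and 3.18 (adjusted p = 0.034 and 0.020). The +/+ values are low counts. No gene of this list passed in limma with 5 in place of 1 added to the counts, nor with no variance trend. None passed with a robust form of the variance step, on the same 8 kidneys, or among genes with a mean of at least 50.

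**Figure D4:**
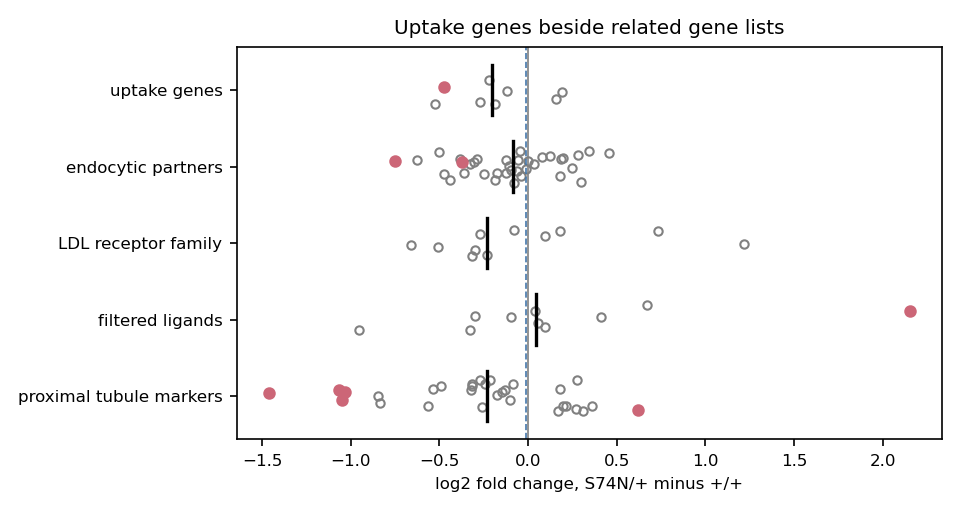
Log2 fold change, S74N/+ against +/+ (horizontal axis, limma), of every tested gene of each list (rows, 1 point per gene) with the list's median as a bar, the median of all genes as a dashed line and genes past an adjusted p of 0.05 filled. The 8 genes of the route have a median of -0.20 and the 30 proximal tubule markers one of -0.23, beside -0.01 over all genes tested.

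Markers of the cells that hold the route moved unevenly with genotype. Of 30 proximal tubule markers, 1 rose (Pck1, an enzyme of gluconeogenesis) and 4 fell (Gatm, an enzyme of creatine synthesis, and the glucose and amino acid transporters Slc5a2, Slc6a19 and Slc7a9), with a median log2 fold change of -0.23. By value 9 of the 30 were higher and 21 lower. None was at 0 in any kidney, and their summed counts were 70236 to 87783 in +/+ and 68748 to 86951 in S74N/+. Slc34a1 and Miox weighed most in these sums, with +/+ means of 18242 and 15361. The mean log2 level, which weighs each marker equally, was 10.24 in +/+ and 9.98 in S74N/+, a difference of -0.26 (exact permutation test, unadjusted p = 0.040). The ranges overlapped, at 10.12 to 10.31 in +/+ and 9.48 to 10.25 in S74N/+, the lowest being S74N/+ replicate 1. The other S74N/+ kidneys lay at 9.97, 10.07, 10.25 and 10.13, so much of the difference comes from that kidney. No test was made without it. In whole kidney, fewer proximal tubule cells and less RNA of a gene per cell cannot be told apart. When kidneys were instead scaled to an equal mean log2 level of these markers, which moved the median of all genes from -0.01 to 0.24, the log2 fold changes became 0.45 for Lrp2 (limma, adjusted p = 0.067), 0.42 for Clcn5 (adjusted p = 0.096), 0.044 for Cubn, -0.26 for Amn and -0.21 for Dab2 (adjusted p = 0.27). This scaling shifts every gene by about the same amount, so it leaves the order of the genes and their place relative to that median nearly as they were.

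Other cells of the kidney also express some of the 8 genes, such as Dab2 and Fcgrt in macrophages and Fcgrt in endothelium and podocytes. Over all genes tested 3.45% rose and 2.58% fell. Of 11 macrophage markers 4 rose and 0 fell, with summed counts of 1383 to 1944 in +/+ and 2617 to 3464 in S74N/+. Cd74 weighed most in these sums, at 910 ± 171 in +/+ and 1864 ± 245 in S74N/+ (SD, n = 5 each). By value 9 of the 11 were higher and 2 lower. Among the 7 that did not pass were Adgre1, Cd68 and C1qc, with log2 fold changes of 0.18, -0.34 and -0.48. Of 10 podocyte markers 3 rose (1 passed without S74N/+ replicate 1, and 1 to 3 passed when any single kidney was left out). Of 10 endothelial markers 1 fell. Of 9 fibroblast markers 4 rose, and 2 to 5 passed when any single kidney was left out. Of 6 lymphocyte and plasma cell markers 0 passed in limma, edgeR and DESeq2. Of these 6 markers, 4 had an unadjusted p under 0.05 in limma, beside 25.4% of all genes tested. Of 10 markers of the thick ascending limb and distal tubule 7 fell, with summed counts of 17476 to 21744 in +/+ and 7573 to 13326 in S74N/+, and of 10 collecting duct markers 1 fell. No marker of these lists was at 0 in any kidney except 1 of the lymphocyte and plasma cell list. The part of these shifts in the values of Dab2, Amn and the other genes was not tested.

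The numbers in the sample titles fall into a low and a high range, and what they stand for is not stated. Within the low range (3 kidneys per genotype, among them S74N/+ replicate 1) the log2 difference was -0.58 for Dab2, -0.64 for Amn, -0.41 for Cubn, 0.13 for Lrp2 and 0.18 for Clcn5. Within the high range (2 kidneys per genotype) it was -0.31, -0.35, 0.06, 0.28 and 0.13. Dab2 and Amn were lower and Lrp2 and Clcn5 higher by value in both ranges, while Cubn differed in sign.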

How the data were processed

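RNA of whole kidney was made into QuantSeq 3′ libraries by the study's authors. Input was 300 ng of RNA, scored for quality at 6.2 to 7.0 (average 6.7). The submitters' processing notes name FastQC 0.11.7, TopHat2 2.0.10, Bowtie 1.0.0, SAMtools 0.1.19, HTSeq 0.6.1, DESeq2 and GRCm39. The deposited values are a signal per gene: the authors had scaled raw reads by the library size factor of DESeq2. Of the columns with per-sample values, 0 were left out. In 8 of the 10 libraries these values were turned back into whole reads (100% of values within 0.1 of a whole number), and only these 8 entered edgeR and DESeq2.

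Here log2(normalized count + 1) of 13236 genes (63 were removed by the filter) was fitted with limma 3.58.1 (R 4.3.3, variance trend, Benjamini-Hochberg adjustment, threshold 0.05), with genotype as the only term. edgeR 4.0.16 and DESeq2 1.42.0 were alternatives. The scripts were tested on simulated data. Single levels were compared with exact permutation tests. All 8 genes are named, with the genes of each pathway list past the threshold and the 3 genes most like Lrp2 and Cubn. The values of 1 gene are not reported here. The relatives of megalin, the subunits beside Cltb and Vps26a, Myo6 and B2m were named after their values were seen. The 8 genes and all lists were chosen with earlier results of these data known. Nothing says that mice came from separate litters, so p-values measure the spread between these kidneys.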

Additional observations from a re-analysis of the deposited data

Results flagged for a closer look

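Among the 22 sets of 5 kidneys of 1 genotype that were searched for a kidney far from the others, 4 held one. A kidney counted as far when its gap to the nearest other passed 0.71 of the range of the set. For this rule chance gives about 1.1. The search used normalized counts and not the log2 scale of the fits. Skewed low counts, such as those of Lcn2, can pass more readily on counts. The search also took in Cltb, Vps26a and Lcn2, which were chosen for passing the threshold in these data. The 4 can therefore not be weighed against the 1.1. Cubn in S74N/+ replicate 1 was at 248 normalized counts while the other S74N/+ kidneys lay at 469 to 493. Dab2 in the same kidney was at 1101, with the others at 1612 to 1799. Lcn2 in that kidney was at 307, with the others at 18.3 to 72.7. Among +/+ kidneys, Lcn2 in replicate 3 was at 23.0, with the others at 6.11 to 9.95. Thus 3 of the 4 values came from one S74N/+ kidney, in which Cubn and Dab2 were low, Lcn2 was high and Lrp2 was at the +/+ mean. The cause was not tested.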

How the results depend on the processing

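Counts of genes of the route past the threshold went from 1 to 0 with no variance trend, with kidneys scaled to equal sums, to equal sums without mitochondrially encoded genes or to equal proximal tubule markers, with edgeR and with limma on the same 8 kidneys (added after the data were seen), and were 0 to 1 when single kidneys were left out. DESeq2 also gave 1, but Amn (-0.59, adjusted p = 0.046) in place of Dab2. In these settings the log2 fold change of Dab2 stayed negative: -0.47 with no trend, -0.39 and -0.43 with equal sums, -0.21 on proximal tubule markers, -0.46 in edgeR, -0.47 in DESeq2 and -0.49 in limma on 8 kidneys (adjusted p = 0.052 to 0.27), and -0.52 to -0.35 leaving out single kidneys. Scaling on proximal tubule markers turned the sign of Cubn (0.044), Fcgrt (0.077) and Lrpap1 (0.14), none past the threshold, while it moved the median of all genes from -0.01 to 0.24, and these 3 genes lay below that median in both fits. The single test of Clcn5 did not pass in limma (0.16, unadjusted p = 0.125), and r of Lrp2 with Cubn became -0.22 without S74N/+ replicate 1. All genes past the threshold numbered 391 with no trend, 1402 in DESeq2 and 311 to 902 leaving out single kidneys. Genes of the 3 pathway lists past it numbered 3 in the reported fit, 1 with no trend or edgeR, 5 with equal sums or on proximal tubule markers (in the latter without Cltb and Vps26a), 7 in DESeq2, 0 in limma on 8 kidneys and 0 to 4 leaving out single kidneys. Over all alternative settings the Cltb call was kept in 10 and lost in 14, and the Vps26a call was kept in 19 and lost in 5. The split of all genes called was 457 higher and 341 lower in the reported fit, 718 and 225 with equal sums, 608 and 274 without mitochondrially encoded genes, 512 and 332 with equal upper quartiles, and 957 and 106 on proximal tubule markers. No paired analysis was possible because the labels give no replicate numbers. Sex as a term was not run, since the sex-linked genes did not show both sexes. Ocrl had the fewest reads of the 8 genes, 32 to 61 per library with recovered reads.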
